A study of Homo sapiens with 8 samples.

Results

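The genes described here are 38 targets and components of the cellular stress response to amino acid shortage and to misfolded protein in the endoplasmic reticulum (ER), out of 19775 genes with a probe set of a single gene symbol. They were chosen by gene symbol: 22 are ATF4 and amino acid genes, and 16 are ER stress genes. The list matched 78 probe sets, 24 of the genes had more than 1, and each gene was read through its probe set with the highest mean over the 8 arrays. All 38 genes passed the filter on low signal.

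The study compared sublines of 2 established human esophageal squamous carcinoma lines, KYSE30 and KYSE180, that had been selected for migration with transwell chambers, in which cells crawl through a porous membrane. Over 4 rounds, cells that stayed behind gave the U sublines, described as less motile, and cells that passed gave the D sublines, described as more motile. The 4 groups were 30U and 30D from KYSE30 and 180U and 180D from KYSE180, with 2 Affymetrix human arrays each. Selection began from 4 independent parental populations, 2 per line, and each gave 1 U and 1 D subline. Both lines came from tumours called well differentiated, no group carried a drug or genetic change, and RNA was taken from untreated cells 2 passages after harvest. Each subline is a selected population of 1 cell line. Unselected parental cells were not analysed here.

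ATF4 is a transcription factor whose translation rises when stress kinases phosphorylate the initiation factor eIF2alpha, as they do when amino acids run short, when haem is lacking, when viral RNA is present, or when unfolded protein builds up in the ER. It switches on genes that make, import and charge amino acids, together with other regulators of the response. Unfolded protein in the ER also activates the sensor IRE1 (gene ERN1), which splices the mRNA of XBP1, and the membrane factor ATF6, and these raise chaperones, foldases and degradation proteins of the ER. Much of the control of ATF4 and XBP1 is at translation and splicing, which a total signal per gene does not measure.

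ATF4 and its partners bind the C/EBP-ATF response element, TGATGNAA, while ATF6 and XBP1 act through the ER stress element (ERSE: CCAAT, 9 bases, CCACG), its second form (ERSE-II: ATTGG, 1 base, CCACG) and the unfolded protein response element, TGACGTGG. These letters were searched on both strands from 250 bases before to 50 bases after each annotated start site in RefSeq (GRCh38.p14), where 34 of the 38 genes had an entry; those without were NUPR1, PSPH, SHMT2 and SLC7A11. TGATGNAA was found in 7 of 18 ATF4 and amino acid genes and in 1 of 16 ER stress genes (HERPUD1), which is 8 of the 53 entries of these genes, against 3.62% of all 35116 promoter entries. An ERSE or ERSE-II was found in 9 of 16 ER stress genes and in 0 of 18 ATF4 and amino acid genes. The ERSE was in 6 of the 53 entries, against 0.0769% of all, and the ERSE-II in 3, against 0.0541%. A gene can have several entries, so counts of genes and of entries differ. TGACGTGG was in 0.729% of all entries and, among the genes here, in HYOU1, where it overlaps an ERSE-II. A match describes the letters in the window and does not show that a factor binds. The stretches below are shown because they hold the element in genes that passed a test within a line; 7 such genes had a match, and CALR is the one not shown. Capitals mark the element, and each stretch reads 5′ to 3′ along the gene's strand. The BCAT1 element is in the window of 1 of 5 annotated start sites, at chr12:24949131-24949160 on the minus strand, and that start is not the most upstream one. The others lie at chr1:212565170-212565269 (ATF3, plus strand), chr7:97872423-97872522 (ASNS, minus strand), chr22:49918513-49918612 (CRELD2, plus strand), chr22:21642069-21642168 (SDF2L1, plus strand) and chr22:28800570-28800669 (XBP1, minus strand). ATF3, ASNS and XBP1 have 2 annotated start sites each, and the element is only in the window of the more upstream one. The elements of CRELD2 and SDF2L1 are on the opposite strand, so the capitals there show the reverse complement.
BCAT1, TGATGNAA: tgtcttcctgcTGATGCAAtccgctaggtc
ATF3, TGATGNAA: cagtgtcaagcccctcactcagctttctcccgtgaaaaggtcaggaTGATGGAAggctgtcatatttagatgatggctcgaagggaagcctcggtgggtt
ASNS, TGATGNAA: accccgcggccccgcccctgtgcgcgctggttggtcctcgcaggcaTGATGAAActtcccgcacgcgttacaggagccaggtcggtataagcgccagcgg
CRELD2, ERSE: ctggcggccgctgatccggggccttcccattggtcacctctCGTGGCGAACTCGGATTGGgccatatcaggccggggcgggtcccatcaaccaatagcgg
SDF2L1, ERSE-II: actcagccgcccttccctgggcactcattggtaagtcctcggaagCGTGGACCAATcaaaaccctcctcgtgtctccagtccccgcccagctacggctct
XBP1, ERSE: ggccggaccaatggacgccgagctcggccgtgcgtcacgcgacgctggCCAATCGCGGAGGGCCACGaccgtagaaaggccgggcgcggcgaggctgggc

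Values are log2 signals, and array medians lay between 5.02 and 5.04. Of 6 squamous epithelial markers with a usable probe set, all passed the filter, with a mean level of 6.61 in 30U, 6.51 in 30D, 11.73 in 180U and 11.53 in 180D. The basal keratins KRT5 and KRT14 were at 4.63 and 3.54 in 30U, around the filter value of 4.46, and at 12.30 and 13.62 in 180U, while SFN lay between 12.60 and 12.96 in all groups. KYSE30 thus lacked clear signal for these defining keratins. Within KYSE30, 3 of the 6 passed: SFN was higher in 30D by 0.24, DSC3 lower (-1.28), and KRT14 was below the filter value in both groups. In KYSE180 0 of the 6 passed, all 6 changes were below 0 with a median of -0.24, and 4 were lower at an unadjusted p under 0.05. Of 4 leukocyte markers measured, PTPRC, CD14 and MS4A1 were below the filter, and CD3E lay around it, at 4.34 to 4.69; its change differed between the lines by 0.46 (adjusted p = 0.0433). The part of these markers in the results below was not tested. Control probes of 180D replicate 1 were unlike those of the other arrays: ACTB differed by 1.92 between its 3′ and 5′ ends, against 1.06 to 1.42 elsewhere, and a 3′ probe set for 18S rRNA read 11.20 against 12.15 to 12.50.

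In KYSE30, 5 of 9 amino acid synthesis genes fell in the migrated cells, as did the regulators ATF4 and ATF3, while 4 of 11 ER folding genes rose. BCAT1 is counted among these synthesis genes, although it also starts the breakdown of leucine, isoleucine and valine. It had the largest change, 3.80-fold lower in 30D. SLC7A11, the cystine importer, was 1.82-fold lower, and ATF3 1.79-fold lower. ERN1, CRELD2, SDF2L1, MANF and CALR were 1.14- to 1.32-fold higher. Of the 38 genes, 15 passed a limma adjusted p of 0.05, 6 higher and 9 lower, where 16.5% of all 14180 tested genes passed (8.42% higher and 8.12% lower). ATF4 and amino acid genes gave 1 higher and 8 lower of 22, with a median change of -0.13. ER stress genes gave 5 higher and 1 lower of 16, with a median of 0.14. The median of all tested genes was 0.01. A change of at least 1.5-fold was reached by 3 of the calls, BCAT1, SLC7A11 and ATF3, against 2.66% of all tested genes. In bulk RNA, fewer cells of a kind and less RNA per cell cannot be told apart. The plot of changes by gene sets these beside KYSE180.

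**Figure D1:**
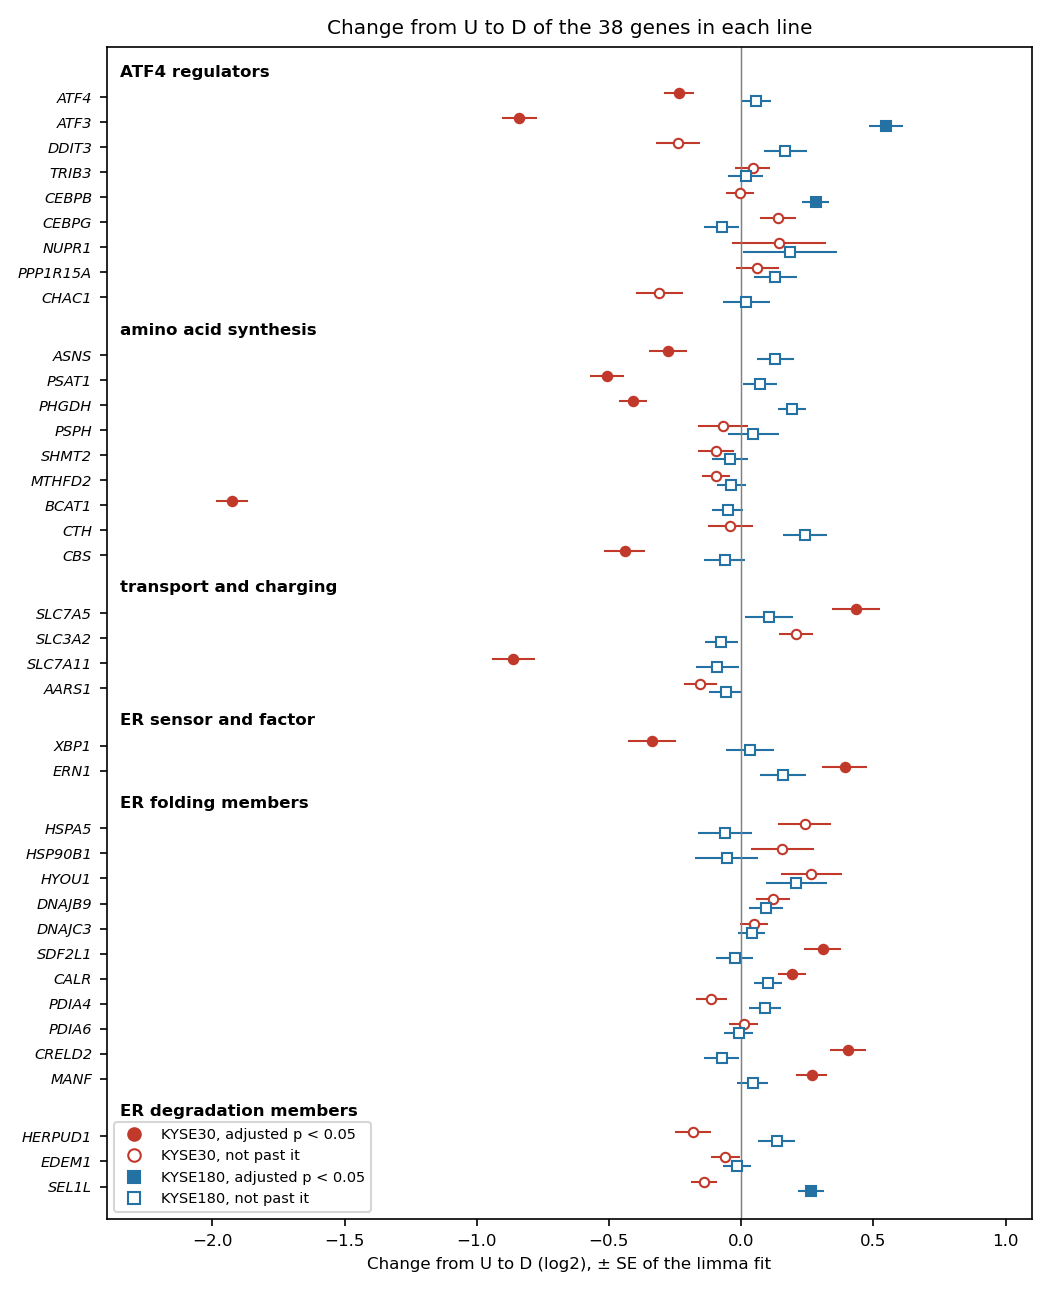
Change from U to D on the log2 scale for each of the 38 genes, ordered by role, in KYSE30 (red circles) and KYSE180 (blue squares). Bars are the SE of the limma fit and filled symbols passed an adjusted p of 0.05; BCAT1 in KYSE30 (-1.92) lies furthest from 0.

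Among the 9 regulators, 2 fell in 30D and 0 rose in the limma fit, or 22.2%, where 16.5% of all tested genes passed. At an unadjusted p under 0.05 the counts were 4 lower and 0 higher. Counts at an unadjusted p, here and elsewhere, are a description only. The share of all tested genes at that threshold was not counted. ATF3, a stress-induced factor of the same bZIP family as ATF4, read 8.62 and 8.61 in 30U and 7.85 and 7.70 in 30D, a change of -0.84 ± 0.07 (SE, adjusted p = 0.000476). The 30U and 30D arrays did not overlap, with a gap of several times the spread within either group. With 2 arrays per group, such separation in a gene that passed restates the call and is no further support, here and below. How many of all tested genes had separate groups was not counted. ATF4 itself read 11.36 and 11.38 in 30U and 11.13 and 11.14 in 30D, a change of -0.23 ± 0.06 (adjusted p = 0.0312). Its 30D arrays were also the lower ones, but the call was lost with the parental populations as blocks (adjusted p = 0.0547), with no filter on dim genes (0.0656) and without any 1 of the 4 KYSE30 arrays (up to 0.157). CHAC1, which degrades glutathione, had a change of -0.31 (adjusted p = 0.0552) and passed with the block (0.0400). DDIT3, the factor CHOP, had a change of -0.24 (adjusted p = 0.0973). The other 5 lay between -0.01 and 0.14: TRIB3, a pseudokinase that restrains ATF4, CEBPB and CEBPG, its bZIP partners, NUPR1, a stress-induced chromatin protein, and PPP1R15A, which directs the phosphatase that reverses eIF2alpha phosphorylation.

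Of the amino acid synthesis genes 5 of 9 were lower in 30D and 0 higher, also at an unadjusted p under 0.05. By the limma adjusted p, 8.12% of all tested genes were lower. BCAT1 read 10.16 and 10.10 in 30U and 8.25 and 8.17 in 30D, a change of -1.92 ± 0.06 (adjusted p = 1.41e-05). The 30D arrays were nearly 2 log2 units below 30U, and all 4 of its probe sets were lower, by -2.03 to -1.24. PHGDH, the first enzyme of serine synthesis, read 9.52 and 9.56 in 30U and 9.12 and 9.14 in 30D (-0.41 ± 0.05, adjusted p = 0.00341). PSAT1, the next enzyme, read 10.23 and 10.14 in 30U and 9.67 and 9.68 in 30D (-0.51 ± 0.06, adjusted p = 0.00318). Both groups were thus separate for these neighbouring steps. PSPH, the last step, had a change of -0.07 (adjusted p = 0.682) on its chosen probe set and of -0.31 and -0.44 on its others. PSPH passed as lower with the mean of its probe sets (-0.27, adjusted p = 0.0342). It also passed when probe sets that can match several transcripts were avoided (-0.31, adjusted p = 0.0236), so this result depends on the probe set. CBS, which joins homocysteine to serine on the way to cysteine, read 6.58 and 6.38 in 30U and 6.05 and 6.03 in 30D (-0.44 ± 0.08, adjusted p = 0.0106). ASNS, asparagine synthetase, read 9.41 and 9.38 in 30U and 9.04 and 9.19 in 30D (-0.28 ± 0.07, adjusted p = 0.0387). Neither gene's groups overlapped, yet both calls depended on single arrays. CBS did not pass when 30U replicate 1 or either 30D array was left out (adjusted p up to 0.0644). ASNS was lost without any KYSE30 array or either 180D array (up to 0.208), with the block (0.0776) and with no filter (0.0709). CTH, the enzyme after CBS, and the mitochondrial folate enzymes SHMT2 and MTHFD2 lay between -0.10 and -0.04.

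The 2 transporters that share the heavy chain SLC3A2 moved in opposite directions. SLC7A11, the light chain that exchanges glutamate for cystine, read 8.32 and 8.14 in 30U and 7.44 and 7.30 in 30D (-0.86 ± 0.08, adjusted p = 0.00106). SLC7A5, the light chain that imports leucine and other large neutral amino acids, read 10.58 and 10.69 in 30U and 11.07 and 11.06 in 30D (0.43 ± 0.09, adjusted p = 0.0195). Each gene's groups were separate, SLC7A11 lower and SLC7A5 higher in both 30D arrays, and all 3 SLC7A11 probe sets were lower, by -0.86 to -0.60. The SLC7A5 call was lost without any 1 of the KYSE30 arrays (adjusted p up to 0.111). SLC3A2 had a change of 0.21 (adjusted p = 0.0693) and AARS1, which charges alanine tRNA, one of -0.15 (adjusted p = 0.138). SLC3A2 passed as higher with the 60th percentile filter (adjusted p = 0.0401), an intensity trend (0.0106) and the KYSE30 arrays alone (0.0331).

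**Figure D2:**
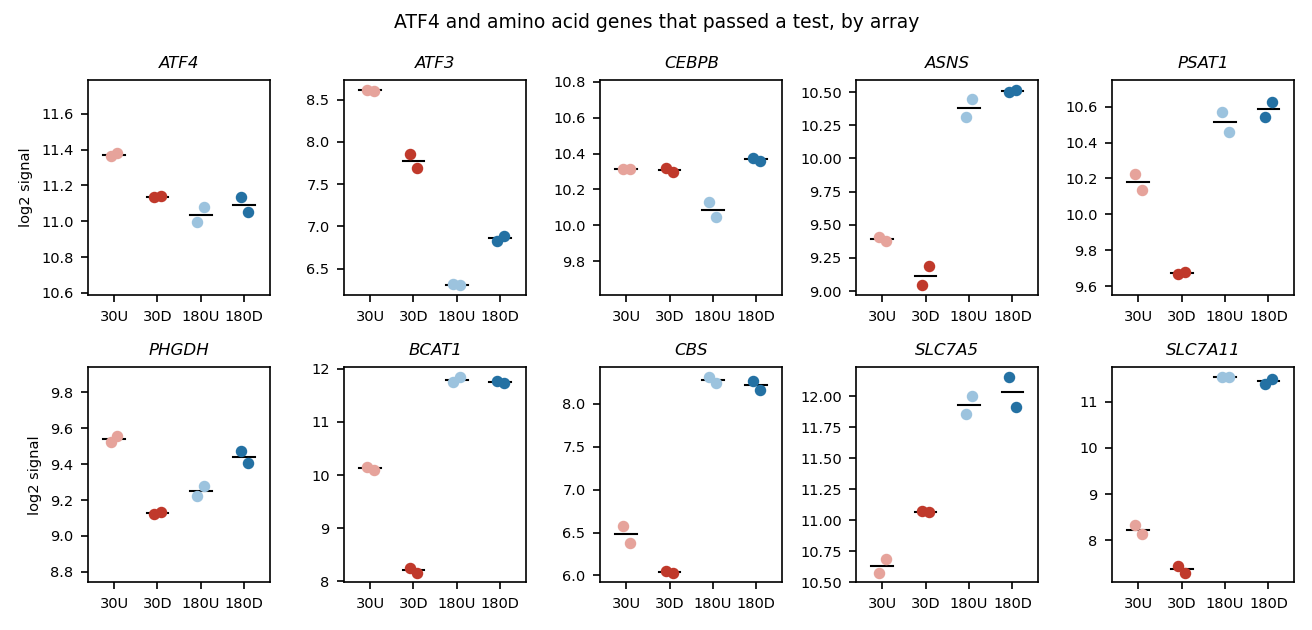
Log2 signal on each array (points) and group mean (bars) for the ATF4 and amino acid genes that passed a test within a line or between the lines' changes. The axes differ between panels; in BCAT1 both 30D arrays (8.25 and 8.17) lie below both 30U arrays (10.16 and 10.10).

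Of the 16 ER stress genes 5 rose in 30D, 1 fell and 10 did not pass. Of all tested genes 8.42% were higher and 8.12% lower. CRELD2, a secreted ER stress protein, read 8.99 and 9.01 in 30U and 9.41 in both 30D arrays (0.40 ± 0.07, adjusted p = 0.00824). ERN1 read 6.56 and 6.55 in 30U and 7.02 and 6.87 in 30D (0.39 ± 0.09, adjusted p = 0.0222). SDF2L1, a cofactor of the ER chaperone system, read 8.70 and 8.67 in 30U and 8.95 and 9.03 in 30D (0.31 ± 0.07, adjusted p = 0.0243). In all 3 genes both 30D arrays exceeded both 30U arrays. MANF, a secreted protein that binds the chaperone BiP, read 9.80 in both 30U arrays and 10.05 and 10.08 in 30D (0.27 ± 0.06, adjusted p = 0.0235). CALR, the lectin chaperone calreticulin, read 10.05 and 10.10 in 30U and 10.28 and 10.26 in 30D (0.19 ± 0.05, adjusted p = 0.0492). These groups did not overlap either, but the step was small. All 5 calls were lost without any 1 of the KYSE30 arrays, with adjusted p up to 0.0577 for CRELD2, 0.131 for ERN1, 0.142 for SDF2L1, 0.132 for MANF and 0.236 for CALR, which was also lost without either 180D array. With the block, SDF2L1 (0.0717), MANF (0.0569) and CALR (0.104) did not pass, nor did CALR with arrays centred on their medians (0.0666), with no filter (0.101) or without probe sets that can match several transcripts (0.0953).

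XBP1, the factor that ERN1 splices, was the ER stress gene that fell in 30D, from 7.78 and 7.73 to 7.46 and 7.38 (-0.34 ± 0.09, adjusted p = 0.0444). Its groups did not overlap, while the sensor that acts on it was higher. The XBP1 call was lost with the block (adjusted p = 0.0993), without any 1 of the KYSE30 arrays (up to 0.200), with no filter (0.0760) and with the mean of its probe sets (0.160). The mean of probe sets also lost ERN1 (0.138), whose other probe sets had changes of -0.05 and 0.02. HSPA5, which encodes BiP, had a change of 0.24 (adjusted p = 0.158), and its other probe set one of 0.42. HSPA5 passed as higher with the mean of its probe sets (0.33, adjusted p = 0.0194) and with an intensity trend (adjusted p = 0.0362). HYOU1, another large ER chaperone, had a change of 0.27 (adjusted p = 0.169). The chaperones HSP90B1, DNAJB9 and DNAJC3 and the disulfide isomerases PDIA4 and PDIA6 lay between -0.11 and 0.16. For HSPA5, HYOU1 and HSP90B1 the 180D arrays lay apart (SD 0.22, 0.26 and 0.26), against at most 0.10 within a KYSE30 group. All groups share 1 spread estimate, so the 180D spread also enters the KYSE30 tests of these genes. The array with unlike control probes was 180D replicate 1, and its part in these results was not tested. Of the genes for ER-associated degradation, EDEM1, HERPUD1 and SEL1L lay between -0.18 and -0.06, and none of these passed.

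**Figure D3:**
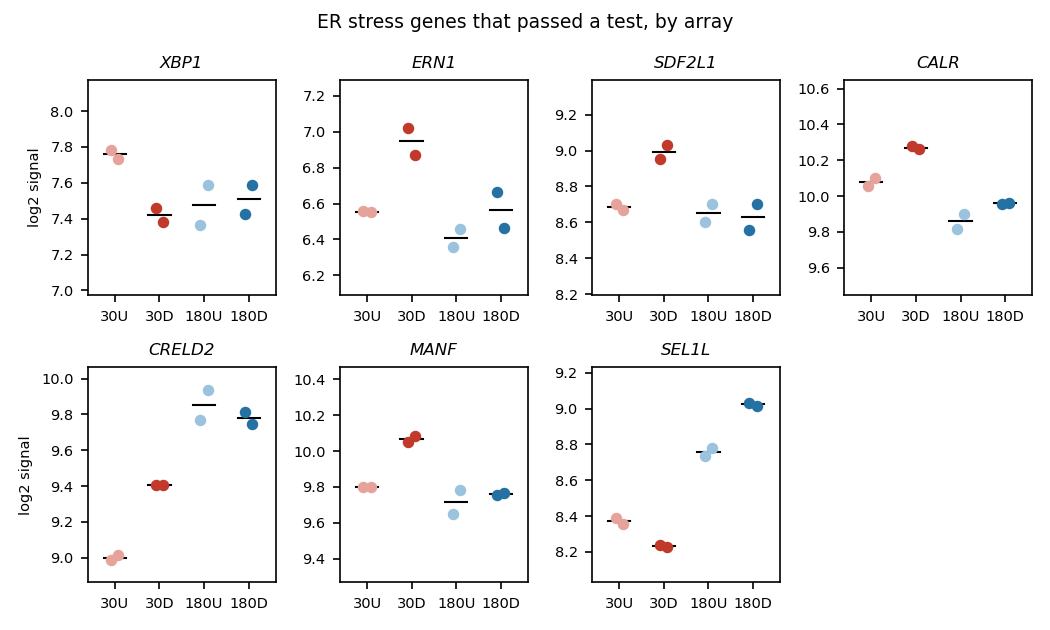
Log2 signal on each array (points) and group mean (bars) for the ER stress genes that passed a test within a line or between the lines' changes. The axes differ between panels; both 30D arrays of CRELD2 read 9.41, above 8.99 and 9.01 in 30U.

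In KYSE180, 3 of the 38 genes were higher in the migrated cells and 0 were lower in the limma fit, where 3.75% of all tested genes passed (2.55% higher and 1.21% lower). At an unadjusted p under 0.05 the counts were 5 higher and 0 lower. None of the calls reached 1.5-fold, as 1.18% of all tested genes did. With arrays centred on their medians, the calls over all genes went from 361 higher and 171 lower to 269 higher and 236 lower, and 1 of the 38 genes passed. The median change was 0.05 for ATF4 and amino acid genes and 0.04 for ER stress genes, against 0.02 for all tested genes. ATF3 read 6.32 and 6.30 in 180U and 6.82 and 6.89 in 180D (0.55 ± 0.07, adjusted p = 0.00584), which is 1.46-fold higher. Both 180D arrays lay above both 180U arrays, and the call held without any 1 array (adjusted p up to 0.0445) and with the block (0.0282). A second ATF3 probe set had a change of 0.10, and the call was lost when that one was used (adjusted p = 0.671) or when the probe sets were averaged (0.0693).

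CEBPB, which pairs with ATF4, read 10.13 and 10.05 in 180U and 10.38 and 10.36 in 180D (0.28 ± 0.05, adjusted p = 0.0347). SEL1L, the adaptor of the main ER ubiquitin ligase for misfolded protein, read 8.74 and 8.78 in 180U and 9.03 and 9.01 in 180D (0.27 ± 0.05, adjusted p = 0.0348). Both 180D arrays were the higher ones in each gene. Both calls were lost without any 1 of the 8 arrays (adjusted p up to 0.120 for CEBPB and 0.117 for SEL1L) and with the block (0.109 and 0.108). CEBPB passed under 4 of 16 alternatives and SEL1L under 3. Another SEL1L probe set went the opposite way, with changes of 0.39 in KYSE30 and -0.52 in KYSE180. The enzymes that fell in KYSE30 gave no call here: PHGDH had a change of 0.19 (adjusted p = 0.110), and ASNS, PSAT1, BCAT1 and CBS lay between -0.06 and 0.13. Of the 4 transport and charging genes 0 passed, also at an unadjusted p under 0.05, at -0.09 to 0.11. Collagen COL1A1 was higher in 180D by 0.58 (adjusted p = 0.0350), 1 of 7 fibroblast markers to pass. Of these 7, 4 passed the filter, COL1A2, COL3A1 and LUM were below it, and the list's mean level was 4.74 in 180U and 4.91 in 180D. The part of these markers in the KYSE180 results was not tested.

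A direct test found 9 of the 38 genes whose U-to-D change was not alike in the lines, 8 with a higher value in KYSE180 than in KYSE30 and 1 with a lower one, where 12.2% of all tested genes passed (6.94% higher and 5.21% lower). At 1.5-fold or more the share was 4 of 38, against 4.64% of all tested genes. The ATF4 and amino acid genes gave 7 of 22 (31.8%). The ER stress genes gave 2 of 16 (12.5%), about the share of all tested genes. BCAT1 differed most, by 1.87 ± 0.08 (adjusted p = 5.03e-05), since it fell in KYSE30 and had a change of -0.05 in KYSE180. ATF3 passed in opposite directions within the lines, and the difference was 1.39 ± 0.09 (adjusted p = 0.000297); with its second probe set it was 0.84. SLC7A11 differed by 0.77 ± 0.11 (adjusted p = 0.00765), PHGDH by 0.60 ± 0.08 (0.00393) and PSAT1 by 0.58 ± 0.09 (0.00891). For these 4 enzymes and transporters the KYSE30 fall made up most of the difference. BCAT1, ATF3, SLC7A11 and PHGDH passed under each of 15 alternatives and reached 1.5-fold. PSAT1 was lost with the mean of its probe sets (adjusted p = 0.125).

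The 4 remaining differences were less firm. ASNS differed by 0.41 (adjusted p = 0.0424), SEL1L by 0.41 (0.0129), CEBPB by 0.29 (0.0482) and CRELD2 by -0.48 (0.0201), the gene whose 30D rise had no counterpart call in KYSE180. CRELD2 and SEL1L were lost without any 1 of the KYSE30 arrays (adjusted p up to 0.0761 and 0.0621). ASNS was lost without any array but 180U replicate 2 (up to 0.139) and with the block (0.0883). CEBPB was lost without any array but 180U replicate 1 (up to 0.158) and with the block (0.108). Of 15 alternatives, ASNS passed under 5 and CEBPB under 4. ATF4 itself differed by 0.29 (adjusted p = 0.0594), and neither SLC7A5 (-0.33, 0.152) nor the ER genes ERN1, SDF2L1, CALR and MANF (-0.33 to -0.09) passed.

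Levels of many of these genes differed more between the lines than between sublines. Others, among them PHGDH, ATF4, XBP1, CEBPB, ERN1, SDF2L1 and MANF, changed more from U to D within a line. Over both fractions, 19 of the 38 were higher and 13 lower in KYSE180, where 67.1% of all tested genes passed (36.1% higher and 31.0% lower), and 19 reached 1.5-fold, against 32.6%. SLC7A11 was 12.9-fold higher in KYSE180 (3.69 ± 0.15, adjusted p = 9.62e-08), with arrays of 11.39 to 11.54 against 7.30 to 8.32 in KYSE30. BCAT1 was 6.08-fold higher (2.60 ± 0.33, adjusted p = 0.000126), CBS 3.96-fold (1.99 ± 0.09, adjusted p = 1.71e-07) and ASNS 2.28-fold (1.19 ± 0.09, adjusted p = 4.20e-06). All 4 transport and charging genes were higher, SLC3A2 by 1.65 ± 0.07 (adjusted p = 1.32e-07) and SLC7A5 by 1.13 (5.13e-06). PSAT1 was higher by 0.62 ± 0.11 (adjusted p = 0.00112). Of the 6 synthesis and transport genes that fell in 30D, 5 were thus higher in KYSE180, while PHGDH differed by 0.01 (adjusted p = 0.942). That value averages over opposite differences. The PHGDH mean was 9.54 in 30U against 9.25 in 180U, and 9.13 in 30D against 9.44 in 180D.

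PSPH went the other way and was 8.89-fold lower in KYSE180 (-3.15 ± 0.07, adjusted p = 4.24e-09), although its other probe sets differed by -0.52 and -2.07, so the size depends on the probe set. ATF3 was 3.05-fold lower (-1.61 ± 0.25, adjusted p = 0.000418) and TRIB3 2.11-fold lower (-1.07 ± 0.05, adjusted p = 2.32e-07). The regulators as a group split, with 4 higher and 4 lower of 9. ER chaperones split too: DNAJC3 was higher by 1.40 (2.63-fold) and HYOU1 by 1.37 (2.58-fold), while DNAJB9 was lower by -0.92 and HSPA5 by -0.78 (1.71-fold). CEBPB, PHGDH, CTH, XBP1, SDF2L1 and HERPUD1 did not pass. Of the 32 calls, 27 held under each alternative other than the 1.5-fold minimum, and ATF4, HSP90B1, CALR, MANF and EDEM1 did not. CALR was lost without probe sets that can match several transcripts (adjusted p = 0.0623). Leaving out 1 array took the adjusted p of ATF4 to 0.106, of HSP90B1 to 0.0769, of MANF to 0.0602 and of EDEM1 to 0.106.

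**Figure D4:**
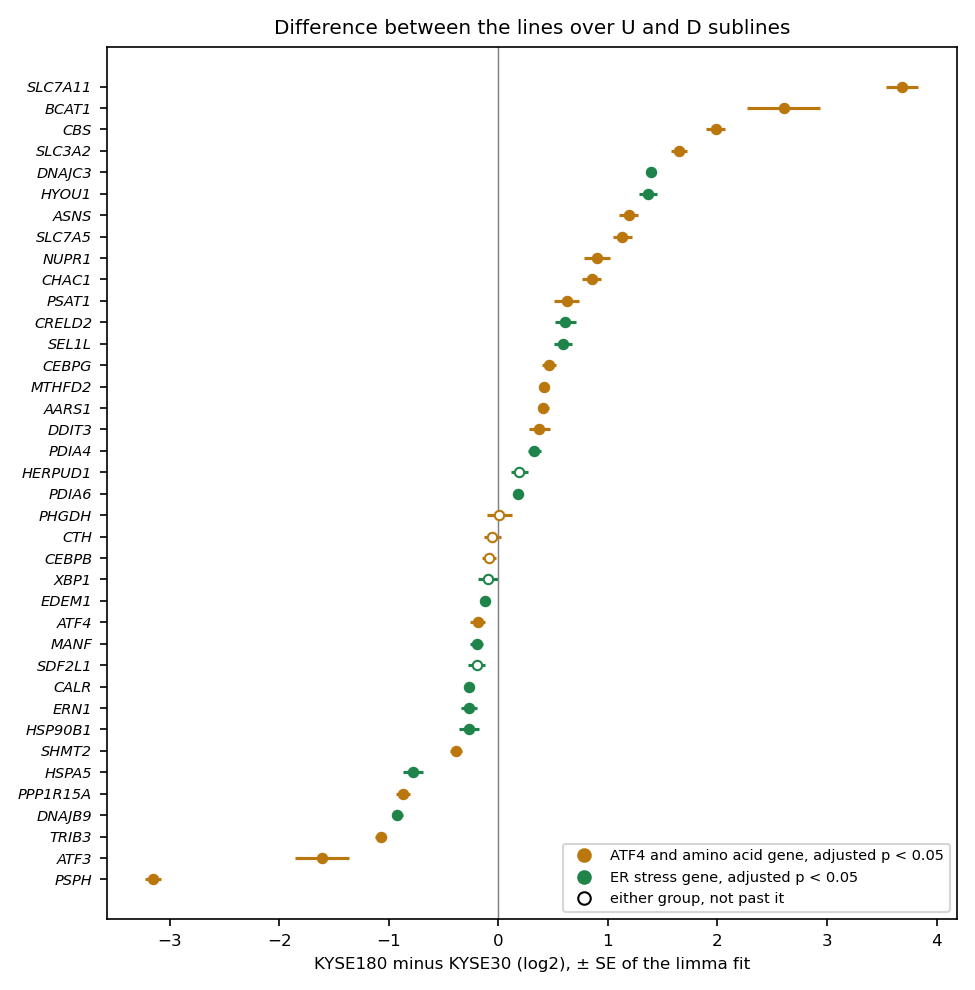
KYSE180 minus KYSE30 on the log2 scale, over both fractions, for each of the 38 genes, with the SE of the limma fit as bars; filled symbols passed an adjusted p of 0.05. SLC7A11 (3.69) and PSPH (-3.15) are the ends of the range.

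Beyond the 38, 110 further genes of the same pathways were listed, and 92 were tested. In 30D, 21 rose and 7 fell; in 180D, 3 rose and 0 fell in the limma fit (11 higher and 6 lower at an unadjusted p under 0.05). These are 30.4% and 3.26% of the 92, against 16.5% and 3.75% of all tested genes, so the share in 180D was about that of all genes. Among kinases, sensors and stress-induced genes of KYSE30, 7 rose and 5 fell of 24, where 8.42% of all tested genes were higher and 8.12% lower. GDF15, a stress-induced cytokine, read 9.42 in both 30U arrays and 7.85 and 7.95 in 30D (-1.52 ± 0.06, adjusted p = 3.82e-05). In KYSE180 it read 4.36 and 4.30 in 180U, below the filter value, and had a mean of 5.04 in 180D, above both (adjusted p = 0.00154), which is at least 1.50-fold higher when measured from that value. It thus passed in opposite directions, as ATF3 did, and the fitted difference was 2.23 ± 0.09 (adjusted p = 2.84e-05), or at least 2.10 when measured from the filter value. With the mean of its probe sets the difference was 1.32. JDP2, a bZIP repressor, also fell in 30D (-0.99 ± 0.11, adjusted p = 0.00177), while EIF2AK2, the kinase PKR, rose by 0.46 ± 0.06 (adjusted p = 0.00401). Also higher in 30D were CREB3, an ER membrane factor (0.34, adjusted p = 0.00640), VEGFA (0.36, 0.0113) and MBTPS2, a protease that releases ATF6 (0.28, 0.0159). TNFRSF10B, a death receptor (-0.21, adjusted p = 0.0343), and NFE2L2, the factor NRF2 (-0.24, 0.0351), were lower. With the mean of their probe sets 3 of these limma calls were lost. MBTPS2 then had a change of 0.09 (adjusted p = 0.612), TNFRSF10B -0.05 (0.687) and NFE2L2 -0.04 (0.767).

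GLUL, glutamine synthetase, read 11.46 and 11.44 in 30U and 10.37 and 10.46 in 30D (-1.03 ± 0.05, adjusted p = 9.41e-05), against 10.82 to 10.87 on the KYSE180 arrays. It fell along with the folate enzyme MTHFD1 (-0.20, adjusted p = 0.0366), the 2 calls among 8 serine, glycine, folate and proline enzymes, where 8.12% of all tested genes were lower. Cytosolic tRNA synthetases gave 5 higher and 0 lower of 17 in 30D, against 8.42% of all tested genes higher, with HARS1 at 0.33 (adjusted p = 0.00865), SARS1 at 0.30 (0.0124), FARSA at 0.28 (0.0167) and WARS1 at 0.27 (0.0136). At an unadjusted p under 0.05 they gave 6 higher and 0 lower. Of 10 amino acid transporters, 1 rose, the lysosomal SLC36A1 (0.21, adjusted p = 0.0422), a share near that of all genes.

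The ER lists gave 4 higher and 0 lower of 15 for folding and 4 higher and 0 lower of 18 for translocation and degradation, shares of 26.7% and 22.2%, against 8.42% of all tested genes higher and 16.5% in either direction; at an unadjusted p under 0.05 they gave 4 and 8 higher and 0 lower in each. The folding genes were PDIA3, a disulfide isomerase that works with calreticulin (0.52 ± 0.11, adjusted p = 0.0230), SIL1, an exchange factor of BiP (0.32, 0.0340), DNAJB11 (0.22, 0.0328) and ERP44 (0.20, 0.0483). The others were SRPRB, part of the signal recognition particle receptor (0.41, adjusted p = 0.0116), KDELR3, a retrieval receptor (0.38, 0.0145), and the degradation genes SELENOS (0.37, 0.00948) and DERL2 (0.20, 0.0363). In 180D, besides GDF15, the stress gene DDIT4 (0.51 ± 0.07, adjusted p = 0.00984) and the neutral amino acid transporter SLC1A4 (0.48 ± 0.07, adjusted p = 0.0167) rose. Of the 28 calls in KYSE30, 4 held under each of 16 alternatives, the 1.5-fold minimum apart, EIF2AK2, GDF15, JDP2 and GLUL, and 15 held with the block. Each of the other 24 was lost without at least 1 of the KYSE30 arrays (adjusted p up to 0.242). The 30D calls of SARS1, SLC36A1, ERP44 and DERL2 were also lost with the mean of their probe sets. In KYSE180 GDF15 held under each alternative. DDIT4 was lost without 180U replicate 2 (adjusted p = 0.0566), and SLC1A4 without the first array of either group (up to 0.0938).

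**Figure D5:**
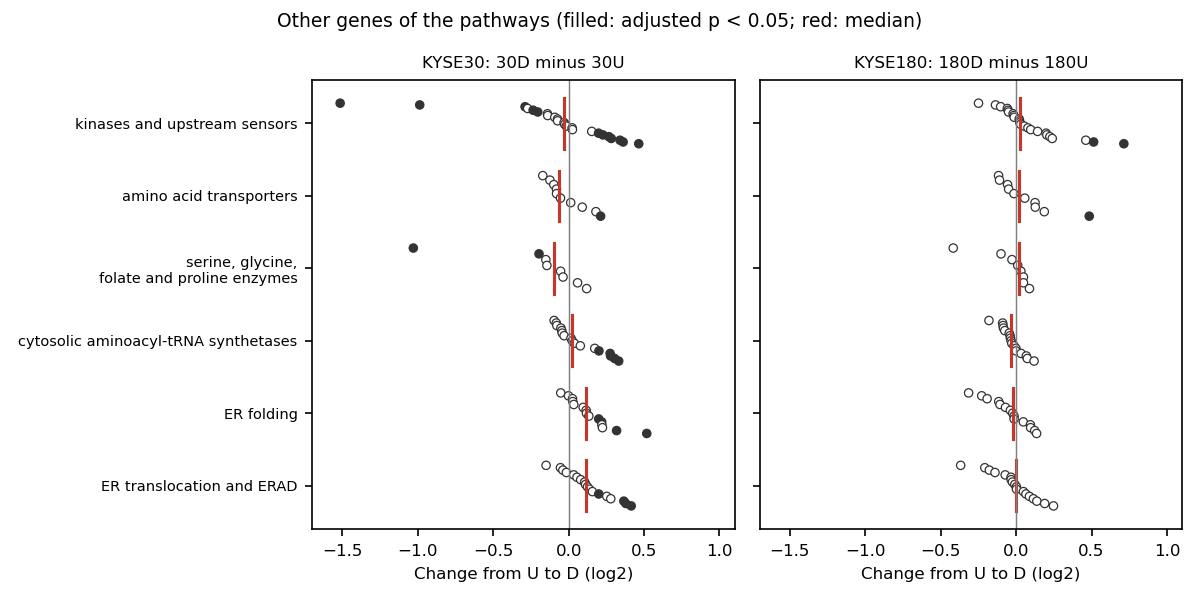
Change from U to D on the log2 scale for the 92 further pathway genes tested, by list, in KYSE30 (left) and KYSE180 (right). Filled points passed an adjusted p of 0.05 and red bars are list medians; GDF15 is the lowest point in KYSE30 (-1.52) and the highest in KYSE180 (0.71, from a 180U level below the filter value).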

How the data were processed

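The deposited log2 values of 8 arrays with 54675 probe sets were made by the authors with RMA, a method of background correction, normalization and probe summary named in the submitters' processing notes. No version of RMA is given in the sources used here. RMA makes array distributions alike, so a change in total RNA per cell is not seen, and it compresses low signals. MicroRNA arrays of the same RNA were not used here.

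Platform annotation gave 41091 probe sets 1 gene symbol and 1801 several, and only the former were used. Symbols were updated by Entrez ID through RefSeq (41037 matched). Genes whose probe set had a mean below the 40th percentile of the table (log2 4.46) were left out, which kept 14180 of 19775. This filter value is not a detection call. A rise from a group mean below it was also measured from it. HSP90B1 has brighter probe sets that carry a second symbol and were not used.

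Models were fitted in R 4.3.3 with limma 3.58.1 (two-sided tests from eBayes), and p was adjusted by Benjamini-Hochberg over 14180 genes, with 0.05 as the threshold. Cell means of the 4 groups gave the changes from U to D and their difference, and an additive fit of line and fraction gave the line difference. The script was tested on simulated data. Groups of 2 arrays share 1 spread estimate, which limits precision, and a p-value reflects how far populations selected apart from each other vary. The sample descriptions pair each U with the D subline of its parental population, which in KYSE180 crosses the replicate numbers. Deviations of paired arrays from their group means correlated at -0.02 in KYSE30 and 0.02 in KYSE180 over 14180 genes, and a fit with parental population as a block was an alternative.

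The 38 genes, the further pathway genes and the marker lists were chosen with earlier results of these data known. Each array's value is given for genes among the 38 that passed a test of the selection, and at most 4 of the further genes are named per list and direction. Alternatives were other filters, median centring, other rules for the probe set, the block, an intensity trend, the arrays of 1 line, a minimum of 1.5-fold, and leaving out each array.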

Additional observations from a re-analysis of the deposited data

Results flagged for a closer look

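For 9 of the 38 genes the U-to-D change was not alike in KYSE180 and KYSE30 by a limma test of the difference itself. The differences (log2, KYSE180 change minus KYSE30 change) were 1.87 for BCAT1, 1.39 for ATF3, 0.77 for SLC7A11, 0.60 for PHGDH, 0.58 for PSAT1, 0.41 for ASNS, 0.41 for SEL1L, 0.29 for CEBPB and -0.48 for CRELD2. ATF3 passed within both lines, in opposite directions, but its KYSE180 call was lost with its second probe set (change of 0.10, adjusted p = 0.671). BCAT1, SLC7A11, PHGDH, PSAT1, ASNS and CRELD2 passed within KYSE30, and SEL1L and CEBPB within KYSE180. For SEL1L another probe set gave a difference of -0.91.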

How the results depend on the processing

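Counts are of the 38 genes, then of all tested genes. With 15 and 2346 in 30D against 30U, no filter gave 11 of the 38, a minimum of 1.5-fold 3 and 377, and leaving out 1 array gave 5 to 16 and 834 to 2553. With 3 and 532 in 180D against 180U, no filter gave 1 and 311, the replicate block 1 and 230, and the KYSE180 arrays alone 1 and 195. Median centring and the mean of probe sets each gave 1 of the 38, the intensity trend 1069 of all genes, a minimum of 1.5-fold 0 and 168, and leaving out 1 array 1 and 209 to 502. With 9 and 1723 in the difference of the changes, the 60th percentile filter gave 14 of the 38, no filter 1142 of all genes, the block 7 and 1011, the trend 17 and 2700, a minimum of 1.5-fold 4 and 658, and leaving out 1 array 5 to 10 and 727 to 1702. With 32 and 9518 between the lines, a minimum of 1.5-fold left 19 and 4625, and leaving out 1 array gave 29 to 31 and 9023 to 9289. With the pairing by parental population as a block 10 of the 38 passed in 30D, 9 of the 15 calls and CHAC1; the calls it changed stand beside the results. Signs turned with the mean of probe sets for SEL1L in 180D (-0.10) and in the difference (-0.20), XBP1 between the lines (0.17), and, among further genes, EIF2AK4 in 30D (-0.090), TNFRSF10B (-0.045) and ERP44 (0.063) in the difference. Avoiding probe sets with _x_at or _s_at turned EIF2AK4 (-0.38, adjusted p = 0.0401) and ERP44 (0.21). Leaving out an array gives fewer samples and the 1.5-fold minimum is a stricter rule; for the other shifts the cause was not tested.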
